A study of Mus musculus with 36 samples.

Results

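Extra wild-type Pax5 (Pax5WT) in Sirt7-/- pro-B cells was compared with the empty retroviral vector (EV) in the same cells, and 13195 of the 18721 genes in the RNA-seq table reached 10 normalized counts in 2 or more of the 4 libraries compared. These genes are described here. The table holds 8 libraries in 4 groups of 2 replicates: EV in wild-type (WT) pro-B cells, and EV, Pax5WT or Pax5K198R in Sirt7-/- pro-B cells. Pax5K198R is the form in which a lysine is replaced by arginine. The libraries belong to a series of 36 mouse samples. The cells were grown on inactivated OP9 stromal feeder cells with IL-7, SCF and FLT3-L, infected with a vector that also encodes a selection marker, human CD4 or GFP. The study describes GFP as the marker expressed with Pax5WT or Pax5K198R in Sirt7-/- pro-B cells, and RNA-seq of these cells. The methods give a sort for human CD4 after infection and describe none for GFP. The labels do not name the marker. All Sirt7-/- groups lack the deacetylase Sirt7 and keep their own Pax5 genes, so Pax5WT was added to Pax5 that was already there. The values were sums of normalized counts between 27938004 and 28969056 in the 4 libraries, and the number of reads behind each library was not recovered.

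Pax5 is the transcription factor that commits lymphoid progenitors to the B lineage: it activates B cell genes such as Cd79a and represses genes of other lineages. Sirt7 is a nuclear deacetylase that depends on NAD+. Pro-B cells are the stage that rearranges the immunoglobulin heavy chain, and they grow in response to IL-7. The comparison asks what added Pax5WT did to the transcriptome of cells without Sirt7.

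The sequences below show where Pax5WT bound near genes that changed. They come from the reference genome (mm10), are 200 bases long and are centred on summits of ChIP peaks (for each gene the peak that holds the letters searched, otherwise the highest) found in both replicates with Pax5WT in Pax5-/- pro-B cells, which are other cells than those compared here. They run 5′ to 3′ on the strand of the gene. Capitals mark the letters GCGTGAC, or GTCACGC on the other strand, which form part of the known Pax5 motif.
Scin, chr12:40102518-40102717, minus strand, intron: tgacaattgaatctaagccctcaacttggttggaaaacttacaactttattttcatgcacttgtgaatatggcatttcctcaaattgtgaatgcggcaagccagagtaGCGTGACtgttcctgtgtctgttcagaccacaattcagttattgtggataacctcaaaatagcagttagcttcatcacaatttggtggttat
Coro2b, chr9:62513060-62513259, minus strand, intron: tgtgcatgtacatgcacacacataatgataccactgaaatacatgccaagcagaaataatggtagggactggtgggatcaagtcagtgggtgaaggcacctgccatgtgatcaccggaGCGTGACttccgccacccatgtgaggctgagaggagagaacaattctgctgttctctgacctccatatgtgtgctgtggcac
Egln3, chr12:54203211-54203410, minus strand, coding exon: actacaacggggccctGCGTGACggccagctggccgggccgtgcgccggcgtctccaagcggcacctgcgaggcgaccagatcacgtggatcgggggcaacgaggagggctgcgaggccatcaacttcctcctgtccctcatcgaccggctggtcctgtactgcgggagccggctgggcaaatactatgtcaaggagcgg
Nr4a3, chr4:48058454-48058653, plus strand, intron: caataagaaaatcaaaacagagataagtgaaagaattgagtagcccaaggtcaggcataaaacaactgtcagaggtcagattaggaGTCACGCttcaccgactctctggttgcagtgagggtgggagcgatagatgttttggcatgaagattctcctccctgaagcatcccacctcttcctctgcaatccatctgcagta
Insm1, chr2:146221712-146221911, plus strand, upstream of the start: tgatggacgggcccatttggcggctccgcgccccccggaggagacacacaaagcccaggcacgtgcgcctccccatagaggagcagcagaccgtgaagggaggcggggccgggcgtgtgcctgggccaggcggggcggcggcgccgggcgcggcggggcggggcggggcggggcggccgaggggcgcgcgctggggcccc
Scin, Coro2b and Egln3 were lower and Nr4a3 and Insm1 were higher with Pax5WT, as given with their values further on. The Insm1 window, centred 109 bases before the start, had the highest peak of the 5 at 39.2-fold and 28.2-fold over input in replicates 1 and 2, and does not hold the letters searched. The Coro2b peak reached 10.0-fold and 14.2-fold, and the peaks of Scin, Egln3 and Nr4a3 lay between 5.09-fold and 6.96-fold.

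Pax5 itself, at chr4:44524757-44710487 on the minus strand, had 25995 and 37114 normalized counts in the EV libraries and 43024 and 43260 in the Pax5WT libraries. The groups did not overlap, and the EV libraries differed more from each other than the Pax5WT libraries did. The log2 fold change was 0.47 (SE 0.177) with an adjusted p of 0.426 in limma. It was 0.22 without EV replicate 1 and 0.73 without EV replicate 2. Reads from the vector and from the cells' own Pax5 genes are counted together, so their levels cannot be told apart. With Pax5K198R, Pax5 stood at 38690 and 45426, and in WT cells with EV at 23862 and 27134.

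Sirt7, at chr11:120618372-120625240 on the minus strand, had 336 and 387 normalized counts with EV and 407 and 325 with Pax5WT, against 1324 and 905 in WT cells. All 4 libraries of the comparison lay below both WT libraries. The study describes the Sirt7-/- allele as a deletion of part of the exons, and which exons gave the remaining counts was not tested. Between Pax5WT and EV the log2 fold change of Sirt7 was 0.01 (SE 0.215, adjusted p 0.995). Its direction turned under some alternatives, where it stayed near 0.

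The Euclidean distance over the log2 values of all tested genes was 68.4 between the EV replicates and 74.8 between the Pax5WT replicates. Between Pax5WT and EV it was 76.6 in replicate 1 and 83.9 in replicate 2, which is more than within either group. With limma on log2(normalized count + 1), 0 genes were called higher and 5 lower at an adjusted p under 0.05, which is 0% and 0.0366% of the 13651 genes tested in the table. At an unadjusted p under 0.05 there were 742 higher (5.44%) and 611 lower (4.48%). The replicates were made on different days, and replicates with the same number deviated together in all 4 groups. With the replicate number as a block, 119 genes were higher (0.872%) and 149 lower (1.09%), of which 119 and 148 were among the 13195 genes described. Without EV replicate 1 the blocked test gave 1 higher and 7 lower, without EV replicate 2 it gave 0 and 1, without Pax5WT replicate 1, 37 and 80, and without Pax5WT replicate 2, 3 and 21. "Rose" and "fell" are used here for genes that passed this blocked test or the test without the block, and the adjusted p of the blocked test is named as such.

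**Figure D1:**
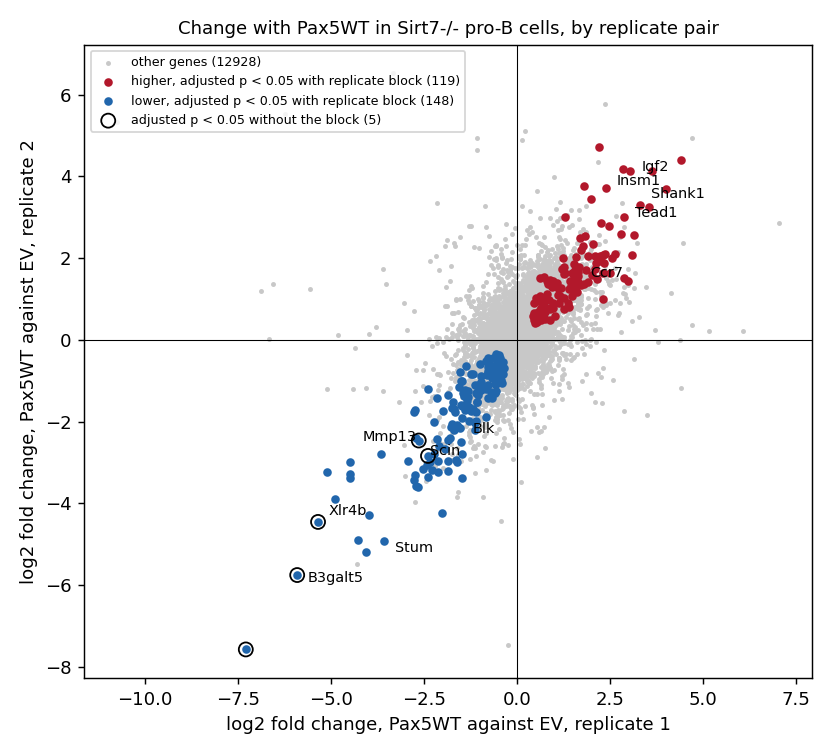
Log2 fold change of Pax5WT against EV for the 13195 genes in replicate 1 (x axis) and replicate 2 (y axis). Grey points are the 12928 genes not called, red and blue the 119 higher and 148 lower genes with the replicate block, and circles the 5 genes called without it. The coloured genes lie in the quadrants where both replicates have the same sign, which the blocked test selects for.

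The 5 genes that fell without the block included a protease, an actin-severing protein and a glycosyltransferase. Mmp13, a collagenase at chr9:7272514-7283331, had 549 and 685 normalized counts with EV and 104 and 94.7 with Pax5WT. Both Pax5WT libraries lay far below both EV libraries, and the log2 fold change was -2.62 (SE 0.213, adjusted p 0.0143). Scin, which encodes the actin-severing protein adseverin at chr12:40059769-40134228, had 1009 and 796 with EV and 161 and 143 with Pax5WT. It fell by 2.55 on the log2 scale (SE 0.224, adjusted p 0.0169). In WT cells with EV, Mmp13 stood at 784 and 697, near the Sirt7-/- EV libraries. Scin stood there at 224 and 173, closer to the Pax5WT libraries than to the Sirt7-/- EV libraries.

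B3galt5, a galactosyltransferase at chr16:96235801-96319859, had 59.0 and 90.2 normalized counts with EV and 0 and 0.684 with Pax5WT. It was near 0 with Pax5K198R too, at 0.669 and 0, and stood at 143 and 155 in WT cells. The log2 fold change was -5.83 (SE 0.545, adjusted p 0.0169), a value that depends on the 1 added before taking logs because one library is at 0. Xlr4b, a member of an X-linked lymphocyte-regulated family at chrX:73214333-73222453, had 71.3 and 93.2 with EV and 0.775 and 3.29 with Pax5WT. Its log2 fold change was -4.90 (SE 0.461, adjusted p 0.0169). The family has near-identical copies, so its counts may be shared among them.

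Gm6361, a processed pseudogene at chr15:31446383-31446817, was listed at 0 in both Pax5WT libraries and at 155 and 190 in the EV libraries (adjusted p 0.00155). It stood at 116 and 169 with Pax5K198R and at 87.5 and 169 in WT cells, so that it was at 0 only in the 2 Pax5WT libraries of the 8. As a pseudogene it may share reads with its parent gene, and a listed 0 can be a failed estimate. Of the 5 calls 1 was kept without EV replicate 1 or without EV replicate 2, and 2 without Pax5WT replicate 1 or without Pax5WT replicate 2, and with only the 4 libraries in the fit, 0 were made. With the block all 5 were called.

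Of the genes that fell only with the block, several were close to the threshold without it. Dock8, a guanine nucleotide exchange factor of leukocyte migration, had 2002 and 2111 normalized counts with EV and 1024 and 896 with Pax5WT (log2 fold change -1.10, SE 0.127, adjusted p 0.0521, blocked 0.0045). Zfpm1, the GATA cofactor FOG1, had 2537 and 2418 with EV and 899 and 1195 with Pax5WT (-1.26, blocked adjusted p 0.0127). Acp6, a lysophosphatidic acid phosphatase of mitochondria, had 2990 and 2750 with EV and 1450 and 1084 with Pax5WT (-1.19, blocked adjusted p 0.00383). The groups of all 3 genes were well separated. Ssc5d, a soluble scavenger receptor, fell further, from 1202 and 864 with EV to 175 and 255 with Pax5WT (-2.27, blocked adjusted p 0.0103). Zfp979, a zinc finger protein, fell by 2.88 on the log2 scale and B4galnt4, a glycosyltransferase, by 2.95, with blocked adjusted p of 0.0151 and 0.0103.

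Several large decreases with the block were in genes with few counts after Pax5WT. Stum had 798 and 369 normalized counts with EV and 66.3 and 11.1 with Pax5WT (log2 fold change -4.25, blocked adjusted p 0.00383). Zbtb16, the transcription factor PLZF of innate-like lymphocytes and progenitors, had 192 and 105 with EV and 4.61 and 10.3 with Pax5WT (-4.17, 0.0313). Egln3, a prolyl hydroxylase that acts on HIF, had 432 and 329 with EV and 65.3 and 26.5 with Pax5WT (-3.14, 0.0460). In each the lower EV library was well above the higher Pax5WT library. Coro2b, a coronin picked after its values were seen, had 345 and 277 with EV and 76.3 and 103 with Pax5WT (-1.79, 0.0327). Klk1b22, Ramp3, Als2cl, Atp8b4, Pdzd2 and Tshz2 also fell, with log2 fold changes between -3.02 and -3.93. Over the 148 genes lower with the block the log2 fold change ranged from -7.43 to -0.44 with a median of -1.41. The groups did not overlap in 139 of them (19.7% of all genes tested), which the test they were chosen by favours.

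No gene was called higher without the block (smallest adjusted p 0.103, of Bmpr1a). Bmpr1a, a receptor for bone morphogenetic proteins, had 122 and 91.4 normalized counts with EV and 353 and 333 with Pax5WT. It rose by 1.69 on the log2 scale (SE 0.232, blocked adjusted p 0.0191). Pax5K198R libraries stood at 86.4 and 95.5, near those with EV, and WT cells at 189 and 234. Capn2, a subunit of the protease calpain, likewise had 372 and 537 with EV and 1044 and 1129 with Pax5WT (1.28, blocked adjusted p 0.011), against 308 and 371 with Pax5K198R. For both genes the Pax5WT libraries lay above the Pax5K198R libraries, by 1.90 and 1.68 on the log2 scale, given as a description because the genes were chosen on these Pax5WT libraries.

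Tead1, a transcription factor of the Hippo pathway, had 233 and 484 normalized counts with EV and 1727 and 3868 with Pax5WT (log2 fold change 2.94, blocked adjusted p 0.00435). Crhbp, the binding protein of corticotropin-releasing hormone, had 732 and 827 with EV and 1925 and 1975 with Pax5WT (1.32, 0.0209). Gnao1, a G protein subunit, had 169 in each EV library and 513 and 434 with Pax5WT (1.48, 0.0186). The groups of these 3 genes were separate, with a wide gap in Tead1. Chst1, a sulfotransferase, had 33.1 and 26.6 with EV and 119 and 160 with Pax5WT (2.18, 0.0191), and Sel1l3 had 8.18 and 8.16 with EV and 62.1 and 54.0 with Pax5WT (2.68, 0.0219). Crip2, Entrep2 and Tceal8 rose by 1.48, 2.71 and 2.10 on the log2 scale.

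Igf2, the imprinted growth factor, had 35.3 and 62.1 normalized counts with EV and 298 and 1103 with Pax5WT (log2 fold change 3.59, blocked adjusted p 0.0264). Shank1, a scaffold protein of synapses, had 22.7 and 55.7 with EV and 235 and 557 with Pax5WT (3.31, 0.00383). Insm1, a zinc finger repressor of endocrine cells, had 38.1 and 71.1 with EV and 205 and 943 with Pax5WT (3.05, 0.0159). The Pax5WT libraries of these genes differed widely between replicates, yet each lay above both EV libraries. Nr4a3, an orphan nuclear receptor picked after its values were seen, had 29.2 and 47.9 with EV and 98.3 and 224 with Pax5WT (1.96, 0.0491). Vill, Ndn, Cidec, Zcchc14 and Radx rose by between 2.63 and 3.52. Over the 119 genes higher with the block the log2 fold change ranged from 0.45 to 4.40 with a median of 1.48. The groups did not overlap in 115 of them (19.1% of all genes tested), which that choice favours.

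**Figure D2:**
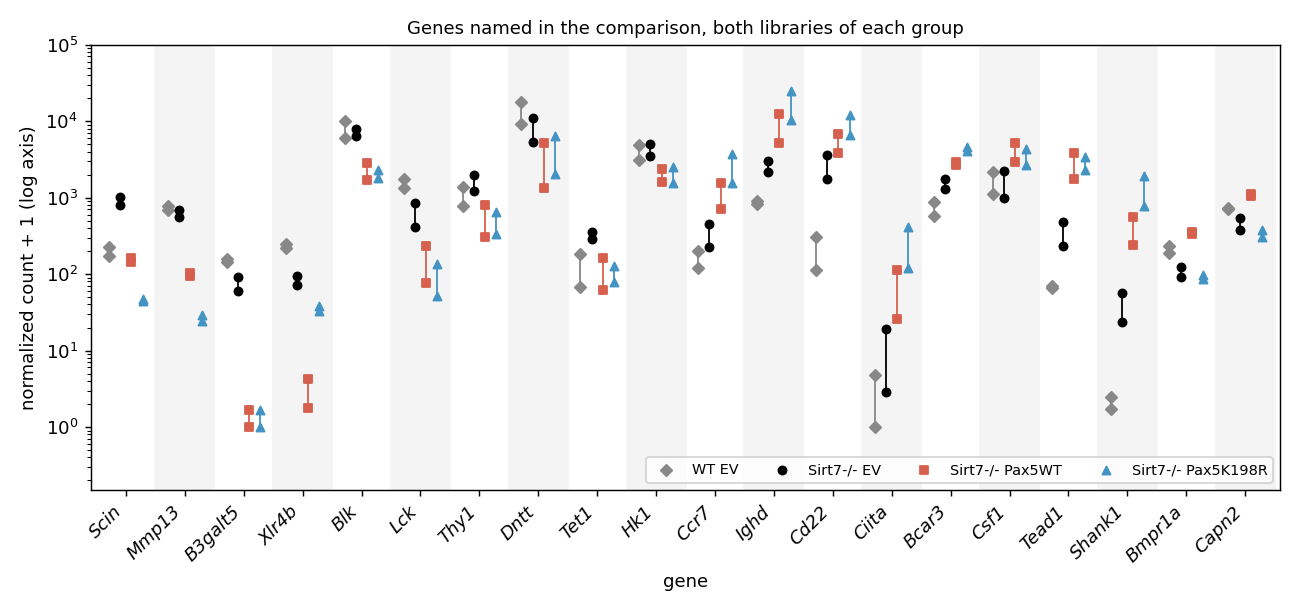
Normalized counts plus 1 (log axis) of 20 genes in both libraries of WT EV, Sirt7-/- EV, Sirt7-/- Pax5WT and Sirt7-/- Pax5K198R cells, with a line joining the 2 libraries of a group. Scin stands at 161 and 143 with Pax5WT against 1009 and 796 with EV, and Bmpr1a at 353 and 333 against 122 and 91.4.

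Genes of immature and mature B cells, which mark stages after the pro-B cell, were among those that rose. Of 14 such genes tested 4 rose and 0 fell with the block, against 0.872% and 1.09% of all genes tested, with a median log2 fold change of 1.09 against -0.01 over the 13195 genes. Of the 14, 9 were above 0 and 5 below, with log2 fold changes between -0.17 for Cr2 and -1.02 for Cxcr5 among the latter, 0 of them past the blocked test. Ighd, the heavy chain constant region of IgD, had 2174 and 3045 normalized counts with EV and 5115 and 12225 with Pax5WT (1.62, blocked adjusted p 0.0332). Ccr7, a chemokine receptor of mature lymphocytes, had 225 and 450 with EV and 718 and 1561 with Pax5WT (1.73, 0.00383). Cd22, an inhibitory coreceptor of B cells, had 1739 and 3649 with EV and 3810 and 6831 with Pax5WT (1.02, 0.0208). Each Pax5WT library was above both EV libraries in these 3 genes, and replicate 2 was the higher library in both groups. Ciita, the master regulator of MHC class II genes, had 1.90 and 17.9 with EV and 24.6 and 111 with Pax5WT (2.85, 0.0230).

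The list also holds Cd74, H2-Aa and H2-Ab1, which Ciita is known to control, and 0 of these 3 passed the test. Cd74, the invariant chain, had 610 and 745 normalized counts with EV and 1455 and 3056 with Pax5WT (blocked adjusted p 0.0839). H2-Aa, a class II chain, had 27.4 and 60.3 with EV and 90.5 and 379 with Pax5WT (0.0847). H2-Ab1, another class II chain, had 90.3 and 109.98 with EV and 145 and 342 with Pax5WT (0.210). In all 3 genes the Pax5WT libraries lay above the EV libraries. The summed level of the 15 genes of the list that have values was 8938 and 12635 with EV and 14847 and 27719 with Pax5WT. It was 25521 and 60744 with Pax5K198R and 4107 and 4440 in WT cells, so the 3 Sirt7-/- groups were all above WT.

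Of 19 tested genes that Pax5 is known to activate, 2 rose with the block (Cd22, and Bcar3 with 1769 and 1308 normalized counts with EV and 2954 and 2680 with Pax5WT, blocked adjusted p 0.04998) and 0 fell (0.872% and 1.09% of all genes tested), with a median of -0.10 and a mean of 0.06. In 7 of the 19 Pax5WT was separated above EV and in 2 below, against 19.1% and 19.7% of all genes tested. Of 25 genes that Pax5 is known to repress 21 were tested and 1 fell, Grap2, and 0 rose (1.09% and 0.872% of all genes tested), with a median of -0.46 and 14 of 21 below 0. Grap2, an adaptor of T cell receptor signalling, had 851 and 618 with EV and 331 and 217 with Pax5WT (-1.43, blocked adjusted p 0.0195). Of 18 early B lineage transcription factors 0 passed the test in either direction, with or without the block, and 0 had an unadjusted p under 0.05 without the block, while Irf8 and Spi1 did with it (0.00738 and 0.0472, median of the list -0.06).

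Among 15 genes of pre-B cell receptor components and signalling 1 fell and 0 rose, where 1.09% of all genes tested fell and 0.872% rose. Blk, a Src family kinase of B cells, had 7924 and 6396 normalized counts with EV and 2816 and 1694 with Pax5WT. Both Pax5WT libraries lay far below both EV libraries, and Blk fell by 1.70 on the log2 scale (SE 0.301, adjusted p 0.138, blocked 0.00377). Dntt, which encodes the terminal transferase that adds N nucleotides during V(D)J recombination, had 10942 and 5253 with EV and 5101 and 1315 with Pax5WT. It fell by 1.55 (blocked adjusted p 0.0218), and replicate 2 was the lower library in both groups. Rag1, a subunit of the recombinase, had 2068 and 5055 with EV and 4212 and 7070 with Pax5WT, where the groups overlapped (blocked adjusted p 0.0549). Of 11 V(D)J recombination genes 1 fell and 0 rose (1.09% and 0.872% of all genes tested), with a median of -0.01.

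Of 20 T cell genes 12 were tested, and 3 fell with the block and 0 rose (1.09% and 0.872% of all genes tested fell and rose), with a median of -0.37. Of the 12, 8 were below 0 and 4 above, and Notch3 and Dtx1 were separated with Pax5WT above EV without passing the test. Lck, a kinase of T cell receptor signalling, had 847 and 408 normalized counts with EV and 232 and 74.3 with Pax5WT (log2 fold change -2.15, blocked adjusted p 0.0191). Thy1, a surface glycoprotein of T cells, had 1960 and 1208 with EV and 803 and 306 with Pax5WT (-1.63, 0.00666). Lat, the adaptor downstream of the T cell receptor, had 1807 and 729 with EV and 1049 and 339 with Pax5WT (-0.94, 0.0491). Lck and Thy1 were separated between groups, while Lat overlapped and was lower within each replicate. The summed level of the 18 genes of the list that have values was 8336 and 4412 with EV and 5393 and 2946 with Pax5WT. Among the tested genes Notch1 was the most abundant over the 8 libraries, and Thy1 stood above it with EV. Of the genes that define T cells, Bcl11b was listed at 0 in the 4 libraries and Cd3d had 1.02 and 0 with EV and 0.993 and 0 with Pax5WT. Outside that list, and picked because they fell, the signalling adaptors and regulators Lax1, Ubash3a and Pag1 had log2 fold changes of -1.47, -1.70 and -1.03, with blocked adjusted p of 0.00383, 0.00579 and 0.0208.

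Hk1, the hexokinase that starts glycolysis, fell from 5003 and 3479 normalized counts with EV to 2396 and 1612 with Pax5WT (log2 fold change -1.09, SE 0.321, adjusted p 0.308, blocked 0.00377). It was the only one of 18 genes of glucose uptake and energy that passed the blocked test, which 1.09% of all genes tested passed in that direction. Of the 18, 15 were below 0 (median -0.26), as were 6853 of the 13195 genes described. Outside that list and picked because they fell, the glycolytic genes Pfkp and Tpi1 fell by 0.59 and 0.55 and the hypoxia-induced gene Ndrg1 by 1.15, with blocked adjusted p of 0.0470, 0.0291 and 0.0270. Myc, which drives growth, had 16622 and 5976 with EV and 6994 and 3355 with Pax5WT (-1.04, blocked adjusted p 0.0357). The Myc groups overlapped, since EV replicate 2 was below Pax5WT replicate 1. It was the only one of 17 genes of the Myc family and G1 regulators to pass (10 above 0, 7 below, median 0.05), against 1.09% of all genes lower and 0.872% higher. Pim1, a kinase induced by IL-7 through STAT5, fell by 0.47 (blocked adjusted p 0.0491), the only one of 16 genes of the IL-7 receptor and STAT5 pathway to pass (4 above 0, 12 below, median -0.14), against the same shares.

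Lta and Tnf are neighbouring cytokine genes that were picked after their values were seen. They fell by 1.401 and 1.21 on the log2 scale (blocked adjusted p 0.0230 and 0.00845). Tnf had 1696 and 649 normalized counts with EV and 787 and 261 with Pax5WT, with overlapping groups. Picked because they fell, and standing for no list, the peptide transporter Tap2, the immunoproteasome subunit Psmb8 and the MHC class I transactivator Nlrc5 had log2 fold changes of -0.68, -0.62 and -0.76, with blocked adjusted p of 0.00994, 0.0491 and 0.0378. Of 16 interferon-stimulated genes 0 passed in either direction, 1 had an unadjusted p under 0.05, lower (4.48% of all genes tested), and the median was -0.29.

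Of 16 progenitor genes 4 rose and 0 fell with the block (0.872% and 1.09% of all genes tested), 10 were above 0 and 6 below, and the median was 0.32. Among those below 0, Gfi1b, a relative of Gfi1, had 876 and 207 normalized counts with EV and 372 and 110 with Pax5WT (-1.07, blocked adjusted p 0.055). Gfi1, a repressor of transcription in stem and lymphoid cells, had 507 and 334 normalized counts with EV and 910 and 865 with Pax5WT (log2 fold change 1.11, blocked adjusted p 0.0208). Tal1, a factor of stem cells and erythroid cells, had 91.6 and 67.3 with EV and 225 and 551 with Pax5WT (2.15, 0.0423). Both were separated between groups. Kit, the receptor for SCF, had 2487 and 1377 with EV and 3389 and 1927 with Pax5WT, overlapping between groups and higher within each replicate (0.47, 0.0472). The fourth was Cebpa, which is also on the myeloid list and is an adipocyte gene, with 37.7 and 127 with EV and 219 and 397 with Pax5WT (2.07, 0.0235). Csf1, the cytokine M-CSF, is on neither list and was picked after its values were seen. It had 980 and 2205 with EV and 2902 and 5125 with Pax5WT (1.39, 0.00383). Of 18 myeloid genes 8 were tested and Cebpa alone passed, against 0.872% of all genes higher with the block (median 0.81), while Lyz2, the lysozyme that marks myeloid cells, had 148 and 61.9 with EV and 33.9 and 34.2 with Pax5WT.

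The lists of mitosis and DNA replication genes held 0 genes that passed the blocked test. All 18 mitosis genes tested were below 0 (median -0.10), with 3 lower and 0 higher at an unadjusted p under 0.05, against 4.48% and 5.44% of all genes tested. Mki67, a marker of cycling cells, had 26379 and 27342 normalized counts with EV and 22295 and 22342 with Pax5WT (log2 fold change -0.27, SE 0.0936, adjusted p 0.394, blocked 0.195). Of 20 DNA replication genes 0 had an unadjusted p under 0.05 (median -0.07). Of 17 BCL2 family genes and p53 targets 3 were higher at an unadjusted p under 0.05 and 0 lower (5.44% and 4.48% of all genes tested), with a median of 0.21, among them Bcl2l1, the survival factor BCL-XL, with 2665 and 2975 with EV and 3800 and 3651 with Pax5WT (blocked adjusted p 0.0611). Egr1, an immediate early factor, rose from 587 and 633 to 980 and 1019 (0.71, blocked adjusted p 0.0474) and was the only one of 18 genes of its list to pass, against 0.872% of all genes higher. Of 17 homing and adhesion genes Ccr7 and S1pr4 rose and 0 fell (median -0.08), and of 9 plasma cell genes Mzb1 fell (median -0.23), where 0.872% of all genes tested rose and 1.09% fell. Lists of sirtuins (7 genes), acetyltransferases and class I HDACs (13), ER stress (15), heat shock (9) and NK cell genes (4) had 0 genes past the blocked test, with medians of 0.01, -0.08, 0.07, -0.05 and -0.11. At an unadjusted p under 0.05 they held 1 gene, the heat shock gene Bag3, which was higher.

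**Figure D3:**
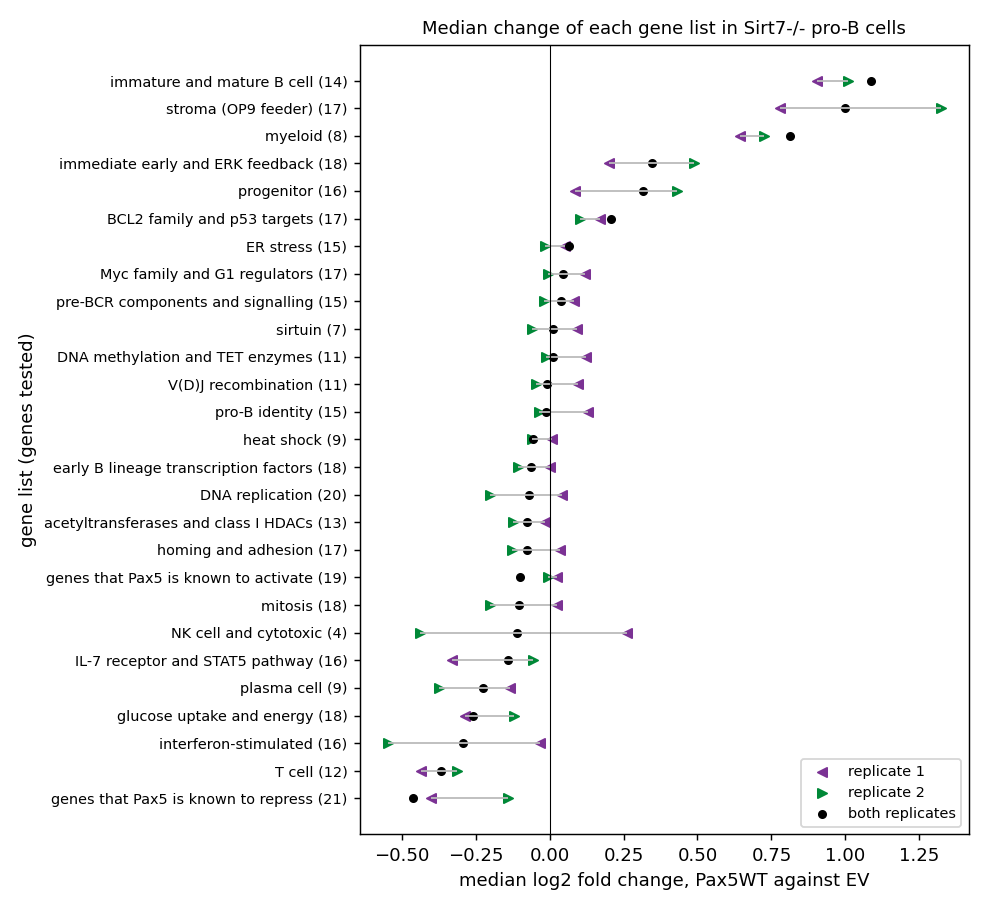
Median log2 fold change of Pax5WT against EV for each gene list with at least 4 genes tested, in replicate 1, replicate 2 (triangles) and both together (black points). Genes of immature and mature B cells stand at 0.91 and 1.01, the stroma list at 0.78 and 1.32 and genes that Pax5 represses at -0.40 and -0.14, and over all genes the medians are near 0.

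The study names Cxcr5, Tet1, Nfatc2 and Cyyr1 for these cells. All 4 were lower with Pax5WT in the mean, and Tet1 passed the blocked test. Because they were chosen on these samples, they are not independent evidence of a direction. Tet1, which oxidizes 5-methylcytosine, had 354 and 286 normalized counts with EV and 161 and 61.0 with Pax5WT (log2 fold change -1.67, SE 0.569, adjusted p 0.382, blocked 0.0474). Cxcr5, a chemokine receptor of follicular B cells, had 1045 and 477 with EV and 689 and 174 with Pax5WT (-1.02, blocked adjusted p 0.0731). Nfatc2, a transcription factor activated by calcineurin, had 88.9 and 54.2 with EV and 49.2 and 15.1 with Pax5WT (-1.31, blocked adjusted p 0.189). Cyyr1 had 219 and 198.1 with EV and 160 and 55.0 with Pax5WT (-1.14, blocked adjusted p 0.457). Cxcr5 overlapped between groups, and the other 3 did not.

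The feeder cells of the culture are stromal, and genes of stromal cells and adipocytes were looked at for that reason. On the stroma list 17 of 20 genes were tested and 17 of 17 had a log2 fold change above 0 (median 0.998), with 9 higher at an unadjusted p under 0.05 (5.44% of all genes tested) and 0 past the blocked test. The summed level of the 19 genes of the list that have values was 10791 and 16193 normalized counts with EV and 17338 and 40528 with Pax5WT. It was 13337 and 30617 with Pax5K198R and 15150 and 12245 in WT cells. Fn1, fibronectin and the most abundant gene of the list, had 4124 and 6657 with EV and 5823 and 17761 with Pax5WT. Cxcl12, the chemokine of the B cell niche, had 1011 and 1797 with EV and 2146 and 5237 with Pax5WT, and Sparc, a matrix protein, had 569 and 837 with EV and 1225 and 1786 with Pax5WT. For all 3 genes Pax5WT replicate 2 was the highest of the 8 libraries. Postn and Dcn, which mark fibroblasts, were too near 0 to be tested.

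A list of 20 adipocyte genes was written after the values had been seen and supports nothing by its counts. Of its genes 17 were among those described, 10 were higher and 0 lower with the block (0.872% and 1.09% of all genes tested), 14 were separated with Pax5WT above EV and 0 below (19.1% and 19.7%), and the median log2 fold change was 1.78. Nothing is read from these counts against the shares, because the genes were picked with their values known. Adipoq, adiponectin, had 115 and 398 normalized counts with EV and 852 and 1137 with Pax5WT, and Fabp4, the adipocyte fatty acid binding protein, 146 and 448 with EV and 862 and 1786 with Pax5WT. Lpl, lipoprotein lipase, had 361 and 1123 with EV and 1794 and 3516 with Pax5WT, and Pparg, the master regulator of adipocytes, 26.7 and 93.1 with EV and 98.4 and 309 with Pax5WT. In all 4 genes, EV replicate 1 was the lowest of the 8 libraries, and the WT libraries lay between the EV replicates. The summed level of the 17 described genes of the list was 23219 and 28466 with EV and 30712 and 38504 with Pax5WT. A large part of it came from Scd1, a desaturase that B cells also express, at 13020 and 15154 with EV and 14627 and 15123 with Pax5WT. Cidec, Cebpa and Csf1 above are also expressed by stromal or adipocyte cells. In bulk libraries, more cells of a type and more RNA per cell cannot be told apart, and the part of feeder RNA in the higher genes was not tested. The sort for human CD4 in the methods would remove feeder cells without that marker. Whether these libraries, described with a GFP vector, were sorted is not stated.

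**Figure D4:**
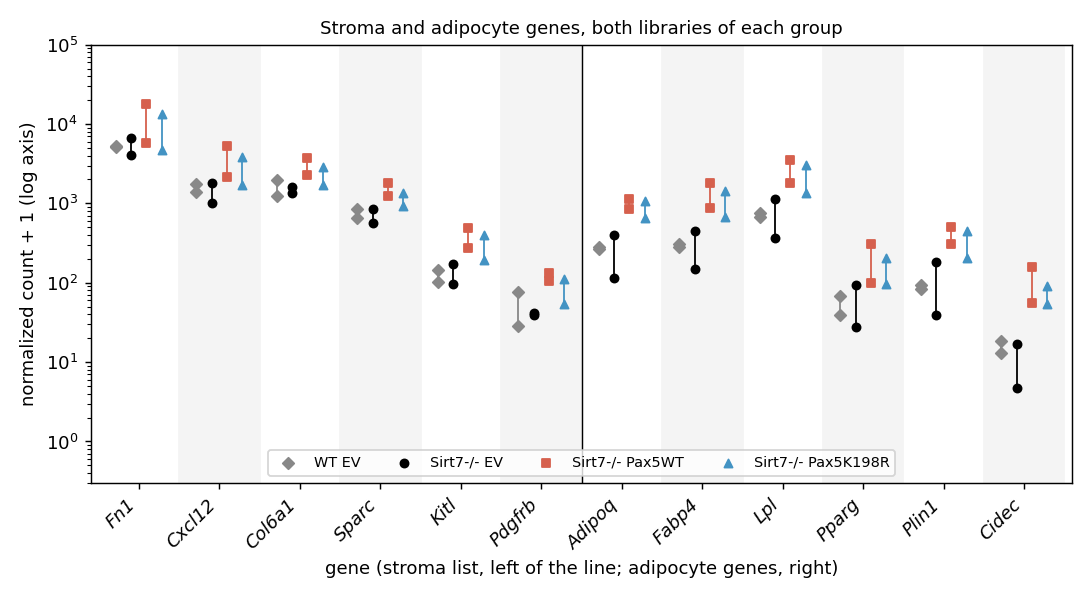
Normalized counts plus 1 (log axis) of 6 genes of the stroma list and 6 adipocyte genes in both libraries of each of the 4 groups, with a line joining the libraries of a group. Adipoq stands at 852 and 1137 with Pax5WT and at 115 and 398 with EV, and Pax5K198R libraries lie near those with Pax5WT.

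Pax5WT and Pax5K198R libraries were also compared with each other. In that comparison 58 genes (0.425% of those tested) were called without the block and 314 (2.30%) with it. The genes named next were chosen on Pax5WT libraries that also enter this comparison, so their differences are not independent of that choice. Zfpm1 had 899 and 1195 normalized counts with Pax5WT and 113 and 111 with Pax5K198R, a log2 difference of 3.20 (adjusted p 0.000527). Mmp13, Scin and Dock8 were likewise higher with Pax5WT than with Pax5K198R, by 1.92 (adjusted p 0.02), 1.75 (0.0271) and 1.30 (0.0160), since Pax5K198R stood at 23.4 and 27.8, at 45.5 and 43.3 and at 409 and 371. Chst1 and Gnao1 had more with Pax5K198R, at 989 and 814 and at 3636 and 3354 (log2 differences of Pax5WT from Pax5K198R -2.69 and -2.88, adjusted p 0.02 and 0.00763).

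Other genes had similar levels with both forms. Blk stood at 2277 and 1812 normalized counts with Pax5K198R, a log2 difference of 0.10 (adjusted p 0.999), Acp6 at 1277 and 1112 (0.07, adjusted p 0.994) and Hk1 at 2516 and 1568 (-0.02, adjusted p 0.999). A p that misses the threshold does not show equal levels. Xlr4b was the opposite case, with 37.5 and 32.3 with Pax5K198R and a log2 difference of -3.70 (adjusted p 0.0251). Against EV, Pax5K198R gave 659 calls (4.83%) without the block and 1588 (11.6%) with it, from a comparison that shares the EV libraries with Pax5WT against EV. Tet1 had 125 and 78.4 and Cxcr5 333 and 107 with Pax5K198R.

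Pax5WT against EV in Pax5-/- pro-B cells is a separate experiment with other libraries and its own normalization. There 300 genes were higher (2.25%) and 134 lower (1.0%) of 13345 tested. Calls in Pax5-/- cells are given without the block, whereas the genes that rose or fell in Sirt7-/- cells are those of the blocked test. The study gives fetal liver as the source of the Pax5-/- cells and bone marrow for the Sirt7-/- cells, from different mouse strains. The log2 fold changes in the 2 experiments had a Pearson r of -0.0715 and a Spearman rho of -0.0532 over 12314 genes, which are not independent replicates. Of the 148 genes that fell in Sirt7-/- cells 141 were tested in Pax5-/- cells, and 20 of these were higher there (14.2%) and 1 lower (0.709%). Of the 119 that rose 100 were tested there, with 10 higher (10%) and 2 lower (2%), against 2.29% and 0.836% of all the genes described here.

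Mmp13 had 23.4 and 29.97 normalized counts with EV and 314 and 338 with Pax5WT in Pax5-/- cells, a log2 fold change of 3.57 (adjusted p 0.00188), opposite to -2.62 in Sirt7-/- cells. Rtn4rl2, a relative of the Nogo receptor, had 4.80 and 14.3 with EV and 442 and 584 with Pax5WT in Pax5-/- cells, and 135 and 122 with EV and 25.9 and 14.4 with Pax5WT in Sirt7-/- cells. Both genes were separated between groups in each experiment. Crhbp, Insm1 and Bcar3 rose in both, with log2 fold changes in Pax5-/- cells of 3.27, 1.71 and 2.10, and Atp8b4 fell in both (-1.24 in Pax5-/- cells). The differences between the experiments were not tested.

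**Figure D5:**
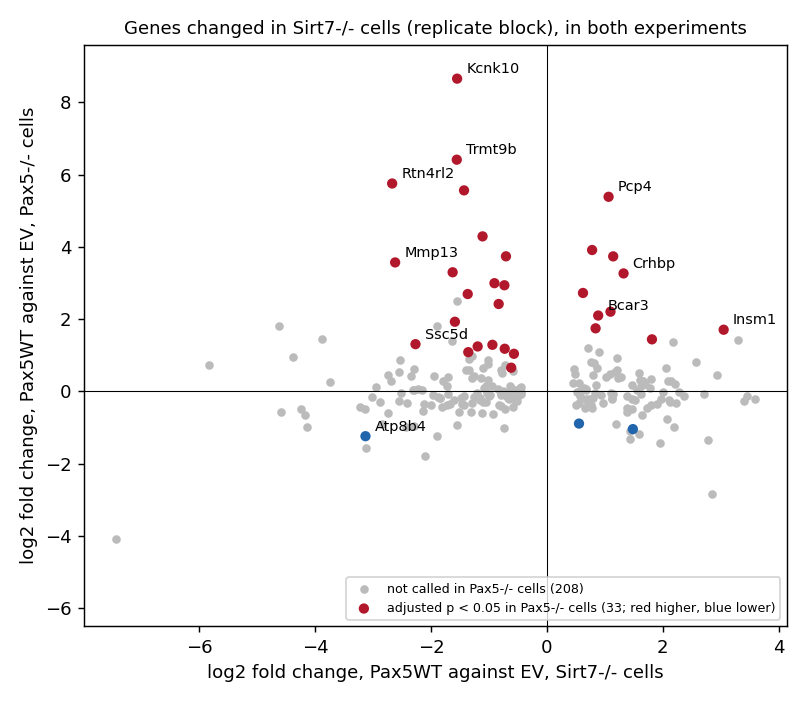
Log2 fold change of Pax5WT against EV in Sirt7-/- cells (x axis) and in Pax5-/- cells (y axis) for the 241 genes called with the replicate block in Sirt7-/- cells and tested in both. The 33 genes called in Pax5-/- cells too, there without the block, are marked apart from the 208 that were not. Mmp13 lies at -2.62 and 3.57.

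Binding of Pax5WT was measured by ChIP in Pax5-/- cells, not in Sirt7-/- cells. The 2 replicates had 10646 and 11830 peaks, and 7914 peaks of replicate 1 overlapped one of replicate 2. A summit of such a peak lay within 1000 bases of the start of 26.5% of the 13146 described genes that have a position in the annotation (Wilson 95% interval 25.8 to 27.3, for counting error only). The share was 17.6% for the 119 genes that rose (21 genes, 11.8 to 25.5) and 16.9% for the 148 that fell (25 genes, 11.7 to 23.7). The median level in the EV libraries was 786 normalized counts over all described genes, 204 in those that rose and 756 in those that fell, so level differed between the sets, and its part in the shares was not tested. With a distance of 10000 bases the shares were 35.2%, 26.1% and 29.1%.

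The letters GCGTGAC or GTCACGC were present in 487 of 7908 windows of 200 bases around shared summits (6.16%), in 32 windows (0.405%) placed 5000 bases away, and in 687 of 32851 RefSeq promoters of 300 bases (2.09%). Around the genes that rose or fell with the block, those on chromosome 18 left out, 12 of 196 windows held them, each near a different gene. Scin, Coro2b, Egln3 and Nr4a3, whose windows are printed above, are 4 of these 12. The Scin window lies 31610 bases downstream of the start of Scin and the Egln3 window 549 bases downstream. A match describes the letters in the window and does not show that Pax5 was bound through them.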

How the data were processed

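The authors quantified paired-end RNA-seq reads with Salmon against mm10, imported them with Tximeta and deposited one signal value per gene, the estimated count divided by a DESeq2 size factor. These are not raw counts. Whole reads could not be recovered, so depth per library is unknown and no count test was run. For ChIP the authors called peaks over input with MACS2 for each sample, and the deposited lists give fold enrichment at the summit, a ratio, and −log10 q-values.

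Genes that reached 10 normalized counts in 2 or more of 8 libraries (13651) were tested with limma 3.58.1 (R 4.3.3) on log2(value + 1), which understates changes of low genes, with the 4 groups in 1 fit, a variance trend and Benjamini-Hochberg adjustment. With 2 libraries against 2 an exact test cannot go below 0.33. The study states that replicates were made on different days, and the labels do not say whether they were separate cultures. Replicate deviations correlated between groups by 0.156 to 0.428 in all 6 pairs of groups, and the replicate number was used as a block in a second fit. The script was tested on simulated data. Positions are from GENCODE M21.

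Genes were named by rank of p and of fold change among separated groups, from lists, and as named by the study. Others were picked after their values were seen, among them Gm6361, Csf1, Coro2b, Nr4a3, Lta, Tnf, Kcnk10, Rtn4rl2 and Trmt9b. Members, lists and rules were chosen with earlier results of these data known. Alternatives covered pseudocount, filter, samples, variance model, scaling, block, left-out libraries and peak rules.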

Additional observations from a re-analysis of the deposited data

Results flagged for a closer look

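In 19 genes Pax5WT moved expression in opposite directions in Sirt7-/- and Pax5-/- cells. In each experiment both Pax5WT libraries lay on one side of both EV libraries. Each gene was called in both, with the block in Sirt7-/- cells and without it in Pax5-/- cells. Of these 18 were lower and 1, the ephrin receptor gene Epha2, was higher in Sirt7-/- cells. By the same calls, without the rule on separation, 10 of 100 genes that rose in Sirt7-/- cells were higher in Pax5-/- cells too. Of 141 that fell, 1 was lower there too. Over all described genes tested there, 2.29% were higher and 0.836% lower in Pax5-/- cells. The tables were normalized separately, the cells also differed in mouse strain and tissue of origin, and the difference was not tested.

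The log2 fold change in Sirt7-/- cells and in Pax5-/- cells was -2.62 and 3.57 for Mmp13. For Ssc5d it was -2.27 and 1.31, with 1425 and 1645 normalized counts with EV and 3261 and 4412 with Pax5WT in Pax5-/- cells. For Acp6 it was -1.19 and 1.24, with 722 and 896 against 1760 and 2068 there. For Rtn4rl2 it was -2.67 and 5.76. For Trmt9b, a tRNA methyltransferase relative, it was -1.55 and 6.41, with 0 and 2.27 against 154 and 153 there, and 200 and 146 with EV against 75.8 and 43.6 with Pax5WT in Sirt7-/- cells. For Kcnk10, a potassium channel, it was -1.55 and 8.66, with 0.904 and 0 against 671 and 462 there, and 499 and 267 against 175 and 88.2 in Sirt7-/- cells. Where EV libraries are at or near 0, the log2 value depends on the 1 added before taking logs.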

How the results depend on the processing

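The number of genes called lower was 5, and 3 where a mean of 50 was required, 0 with only the 4 libraries compared, and 8 with no variance trend, which also called 1 higher. Leaving out 1 library at a time gave 1 to 5 lower and 0 higher, and of the 5 genes 1 was kept without either EV library and 2 without either Pax5WT library. The replicate block gave 119 higher and 149 lower, and, in fits added after seeing the data, 388 and 251 without the WT EV libraries. The blocked fits that left out 1 library gave 0 to 37 higher and 1 to 80 lower: without EV replicate 2, 0 and 1, without EV replicate 1, 1 and 7, without Pax5WT replicate 1, 37 and 80, and without Pax5WT replicate 2, 3 and 21. The cause was not tested.

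Of 1723 values for 124 named genes other than Sirt7 and Pax5 under 14 alternatives, 1617 kept direction and side of the threshold, 80 newly passed it, 77 of them with the block, 22 no longer passed it and 4 turned direction. Sirt7, counted apart, turned to -0.00842 with quantile normalization and -0.00299 with median centring. It ranged from -0.15 to 0.17 without 1 library (-0.09 without EV replicate 1, -0.15 without Pax5WT replicate 1) and from -0.21 to 0.24 in blocked fits of that kind (-0.21 and -0.11 for the same libraries). Kdm5d, a Y-linked gene, turned to 0.02 and 0.13 without EV replicate 1 and Pax5WT replicate 2, and to 0.0630 in the blocked fit without the latter, within a range of -0.24 to 0.13 without 1 library. Nkg7, an NK cell gene, turned to -0.78 and -0.50 without EV replicate 2 and Pax5WT replicate 1, within a range of -0.78 to 1.52.

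The share of genes with a promoter peak, for all genes, those that rose and those that fell, was 35.2%, 26.1% and 29.1% within 10000 bases, and 10.3%, 7.56% and 3.38% at a fold of at least 6 and q under 0.001. With peaks of a single list it ranged from 32.2% to 37.5%, was 21.8% with either list, and ranged from 24.3% to 26.4%. Unknown depth limits what can be said of genes near 0.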
